A study of Mus musculus with 6 samples.

Results

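The 10 genes described here encode enzymes that clear reactive carbonyls, epoxides and other foreign or reactive compounds, and were followed in 4T1-LM3 cells, a murine mammary carcinoma line. They were taken by symbol from a table of 16426 genes, and all 10 were in it: the aldo-keto reductases Akr1a1, Akr1b3, Akr1b8 and Akr1c13, the carbonyl reductases Cbr1 and Cbr3, the enone reductase Ptgr1, the hydrolases Ephx1 and Esd, and Por, which supplies electrons to cytochromes P450. The cells had been cultured in conditioned medium (CM), which carries what other cells released. In 3 samples the donors were matrix fibroblasts (MFs) called Tdo2high, that is, rich in tryptophan 2,3-dioxygenase, and in 3 samples it was a control CM. The labels do not give the cell source of the control CM, the time in medium or its dose, and they do not say whether replicates came from different cultures. The p-values therefore reflect the spread among these 6 libraries, which may be technical. A medium from fibroblasts low in Tdo2 was not analysed here.

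Aldo-keto and carbonyl reductases use NADPH to turn aldehydes and ketones, among them products of lipid peroxidation, into less reactive alcohols. Enone reductases remove the reactive double bond of such carbonyls, and epoxide hydrolases open epoxides with water. Several of these genes are known targets of NRF2, the transcription factor of the antioxidant response, and P450 enzymes fed by Por are a classical part of the response to aryl hydrocarbon receptor (AhR) ligands, to which kynurenine, a product of the Tdo2 pathway, belongs.

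Expression was measured as FPKM, fragments scaled by transcript length and library size, by sequencing of polyA RNA. The 10804 genes that reached 1 FPKM in 3 or more of the 6 libraries were tested as log2(FPKM + 1) with limma. FPKM summed to 438603 to 447415 per library, 10765 to 10791 genes reached 1 FPKM, and Pearson's r across genes was 0.997 to 0.998 within groups and 0.996 between groups. The keratins Krt8 and Krt18 made up nearly all of the epithelial marker sum, which was 637 to 668 FPKM with Tdo2high CM and 615 to 651 FPKM with control CM, while the epithelial markers Epcam and Cdh1 did not exceed 0.11 and 0.02 FPKM in any library. Of 10 fibroblast markers chosen, 7 had values, of which 4 remained under 1 FPKM throughout, Col1a1 among them, and the sum was 80.8 to 82.7 FPKM with Tdo2high CM and 80.5 to 82.4 FPKM with control CM. Within that sum Pdgfra rose and Dcn fell, at adjusted p = 0.00518 and 0.00114 by limma; whether these shifts have a part in the results that follow was not tested. Of 5 leukocyte markers chosen, 3 had values and summed to at most 2.1 FPKM with Tdo2high CM and 2.16 FPKM with control CM. Nearly all of that sum was Cd68. Of 3 endothelial markers chosen, 2 had values and summed to at most 0.09 and 0.12 FPKM.

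With Tdo2high CM, Esd, Ephx1 and Ptgr1 rose modestly, by 23.1%, 24.2% and 13.1% of the control mean. None of the aldo-keto reductases, nor Cbr1 or Por, passed the test, and Cbr3 was at or near 0 in all libraries. Of the 10 genes, 9 reached 1 FPKM in every library and were tested. Of these, 3 rose and 0 fell at an adjusted p under 0.05, where 3.35% of all tested genes rose and 7.41% changed in either direction. Over all tested genes the balance of calls depended on scaling, with 362 higher and 439 lower as deposited, 320 and 505 on the TPM scale, and 434 and 369 with the median of ratios. The median log2 fold change was 0.066 over the 9 genes and -0.014 over all tested genes. The groups did not overlap in 3 of the 9, the same 3 genes, against 29.2% of all tested genes. Each library pools the RNA of many cells, so a larger share of cells with a transcript and more of it per cell cannot be told apart.

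**Figure D1:**
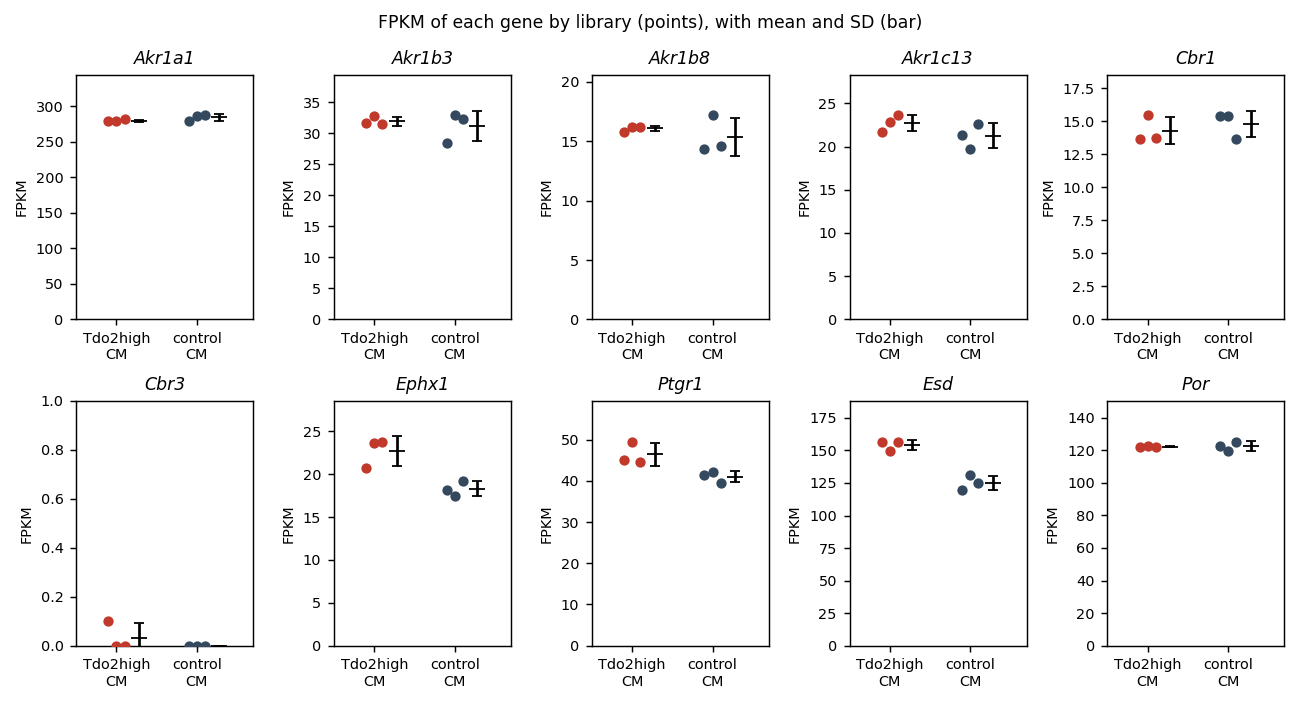
FPKM (y axis, from 0, a separate scale in each panel) of the 10 genes in each library, with Tdo2high CM in red and control CM in dark blue. Points are libraries and bars are the mean and SD (n = 3 per group). The Esd points with Tdo2high CM lie between 149.5 and 156.7 FPKM, all above the control CM points, whereas the Por points of both groups lie around 122 FPKM.

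Esd encodes the esterase that hydrolyses S-formylglutathione, the last step in the clearance of formaldehyde through glutathione. It had 156.1, 149.5 and 156.7 FPKM in the Tdo2high CM libraries, against 119.9, 130.8 and 125.04 FPKM in the control CM libraries. Every Tdo2high CM library was above every control CM library, with a gap of 18.7 FPKM between the groups. The mean was 154 ± 4.01 FPKM with Tdo2high CM and 125.2 ± 5.48 FPKM with control CM (SD, n = 3 each). The log2 fold change was 0.30 ± 0.04 (SE; adjusted p = 0.00124 by limma), which placed Esd at rank 77 of 10804 by p. The call held in all 16 alternative settings, with log2 fold changes of 0.27 to 0.33. Adh5, the dehydrogenase that makes S-formylglutathione and so acts one step before Esd, had 78.2 ± 1.94 FPKM with Tdo2high CM and 77.9 ± 2.65 FPKM with control CM (SD, n = 3 each; log2 fold change 0.0062, adjusted p = 0.934 by limma), with a sign that turned in 4 of 16 settings. Of 50-base windows of the Esd transcript, 14.1% also occur in transcripts of 9 other genes, chiefly the processed pseudogene Gm5456, so reads of such copies may be included in its value. Esd lies on chromosome 14 from 74732151 to 74750765 on GRCm38, on the plus strand.

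Ephx1 encodes microsomal epoxide hydrolase, which converts reactive epoxides, including those made by P450 enzymes, into diols. It had 20.7, 23.7 and 23.8 FPKM in the Tdo2high CM libraries, against 18.2, 17.5 and 19.2 FPKM in the control CM libraries. The groups did not overlap, and Tdo2high CM replicate 1 was the lowest of its group. The mean was 22.7 ± 1.75 FPKM with Tdo2high CM and 18.3 ± 0.886 FPKM with control CM (SD, n = 3 each), a log2 fold change of 0.30 ± 0.06 (SE; adjusted p = 0.013 by limma). By limma the call ended without Tdo2high CM replicate 2 (0.27, adjusted p = 0.0531) and when genes with low values were kept (adjusted p = 0.0719). Its relatives were scarce: Ephx2, Ephx3 and Ephx4 did not exceed 0.1 FPKM in any library. The gene lies on chromosome 1 from 180989556 to 181017569, on the minus strand, and 1.89% of its transcript windows occur elsewhere.

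Ptgr1 encodes prostaglandin reductase 1, which inactivates leukotriene B4 and reduces the double bond of enals and enones such as 4-hydroxynonenal. It had 45.1, 49.5 and 44.6 FPKM in the Tdo2high CM libraries, against 41.5, 42.05 and 39.6 FPKM in the control CM libraries. The groups did not overlap, with 2.57 FPKM between the lowest Tdo2high CM and the highest control CM library. The mean was 46.4 ± 2.69 FPKM with Tdo2high CM and 41.03 ± 1.29 FPKM with control CM (SD, n = 3 each), a log2 fold change of 0.17 ± 0.04 (SE; adjusted p = 0.0382 by limma). This was the least stable of the 3 calls and ended in 7 of 16 settings. By limma, the adjusted p was 0.0617 without Tdo2high CM replicate 1, 0.103 without Tdo2high CM replicate 2, and 0.0842, 0.0582 and 0.116 without control CM replicates 1, 2 and 3, and it was also above the threshold with no filter (0.119) and with no intensity trend (0.0939). Ptgr2, a related reductase of 15-keto-prostaglandins, had 23.8 ± 0.963 FPKM with Tdo2high CM and 22.99 ± 0.369 FPKM with control CM (SD, n = 3 each), and did not pass (adjusted p = 0.468 by limma). The log2 ratio of Ptgr1 over Ptgr2 within a library was 0.94, 1.04 and 0.82 with Tdo2high CM, against 0.82, 0.87 and 0.74 with control CM. These ratios overlapped, and their difference of 0.12 had p = 0.3 in an exact two-sided permutation test over samples (adjusted p = 0.9 over the 3 pairs of relatives compared), a design in which p cannot go below 0.1. The difference was 0.069 without Tdo2high CM replicate 2 and 0.182 without Tdo2high CM replicate 3. Ptgr1 lies on chromosome 4 from 58965590 to 58987131, on the minus strand, and none of its transcript windows occurs in another annotated gene.

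**Figure D2:**
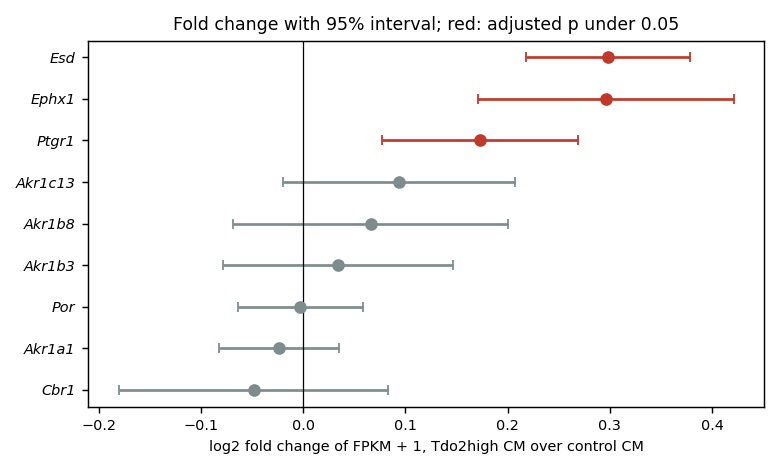
Log2 fold change of FPKM + 1 (x axis, Tdo2high CM over control CM) of the 9 tested genes, with 95% intervals from limma. Red marks an adjusted p under 0.05. The intervals of Esd, Ephx1 and Ptgr1 lie above 0, from 0.22 to 0.38, from 0.17 to 0.42 and from 0.08 to 0.27, and those of the other 6 genes include 0.

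The 4 aldo-keto reductases were expressed at very different levels and none passed the test. Akr1a1, aldehyde reductase, was the most abundant of the 10 genes in both groups and held 39.2% to 39.5% of their summed FPKM with Tdo2high CM and 42.1% to 42.3% with control CM. It had 278.9, 278.8 and 281.6 FPKM with Tdo2high CM, against 278.96, 286.8 and 287.3 FPKM with control CM, and the groups overlapped. Its log2 fold change was -0.023 (adjusted p = 0.638 by limma), with a 95% interval of -0.08 to 0.04, that is, 0.945-fold to 1.02-fold. A rise of the size seen for Esd lies outside that interval.

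Akr1b3, the mouse aldose reductase that reduces glucose to sorbitol, had 31.6, 32.8 and 31.5 FPKM with Tdo2high CM, against 28.5, 32.9 and 32.3 FPKM with control CM (log2 fold change 0.034, 95% interval -0.08 to 0.15, adjusted p = 0.727 by limma). The control CM values spanned the Tdo2high CM values, and without control CM replicate 1, the lowest library, the sign turned (-0.029). Akr1b8, a related reductase known as inducible by fibroblast growth factor, had 15.8, 16.2 and 16.2 FPKM with Tdo2high CM, against 14.3, 17.2 and 14.6 FPKM with control CM (0.066, 95% interval -0.07 to 0.20, adjusted p = 0.551 by limma), and its log2 fold change was 0.144 without control CM replicate 2 (adjusted p = 0.0742) and 0.021 and 0.033 without control CM replicates 1 and 3. Its control CM libraries varied by a coefficient of variation of 10.2%, against 1.47% with Tdo2high CM, with control CM replicate 2 highest of all. Both genes lie on chromosome 6, Akr1b3 from 34303930 to 34317489 on the minus strand and Akr1b8 from 34354146 to 34368461 on the plus strand. Of the Akr1b3 transcript windows 86.2% also occur in other annotated genes, chiefly the unclassified Gm38056, so its value is uncertain where reads were split between copies.

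Akr1c13, an aldo-keto reductase of the hydroxysteroid dehydrogenase group, had 21.7, 22.9 and 23.6 FPKM with Tdo2high CM, against 21.4, 19.8 and 22.6 FPKM with control CM. The groups overlapped, and the log2 fold change of 0.094 did not pass (95% interval -0.02 to 0.21, adjusted p = 0.303 by limma); it was 0.044 without control CM replicate 2. Its interval reaches 1.15-fold, so a rise as large as that of Ptgr1 (1.13-fold on the same scale) lies within it. The same holds for Akr1b8, whose interval also reaches 1.15-fold. The interval of Akr1c13 is given above on the log2 scale. Akr1c13 shares 28.6% of its transcript windows with its neighbour Akr1c12, which had 2 ± 0.324 FPKM with Tdo2high CM and 1.75 ± 0.48 FPKM with control CM (SD, n = 3 each). Both are on chromosome 13, Akr1c13 from 4191168 to 4205604. The log2 ratio of Akr1b8 over Akr1b3 differed by 0.032 and that of Akr1c13 over Akr1c12 by -0.040 between the groups (exact permutation p = 0.9 and 1, with adjusted p = 1 for both).

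Cbr1, the main cytosolic carbonyl reductase, which reduces quinones and prostaglandins, had 13.7, 15.5 and 13.8 FPKM with Tdo2high CM, against 15.4, 15.4 and 13.7 FPKM with control CM. In each group the values split into high and low libraries over the same range, and the log2 fold change was -0.048 (95% interval -0.18 to 0.08, adjusted p = 0.667 by limma). It ran from -0.102 without Tdo2high CM replicate 2 to -0.019 without Tdo2high CM replicate 1, and leaving out any 1 library moved it by over 1.5 times. Cbr3, its close relative, also on chromosome 16, was listed at 0.1, 0 and 0 FPKM with Tdo2high CM and at 0 in all 3 control CM libraries. It was below the filter and no fold is given. Cbr1 spans 93607837 to 93610349 and Cbr3 93683219 to 93690991, both on the plus strand. Of the Cbr1 transcript windows, 4.13% occur in other genes, chiefly Gm5678.

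Por, cytochrome P450 oxidoreductase, passes electrons from NADPH to microsomal P450 enzymes, heme oxygenase and squalene monooxygenase. It had 122.1, 122.6 and 121.98 FPKM with Tdo2high CM, against 122.8, 119.3 and 125.3 FPKM with control CM. The Tdo2high CM values fell inside the control CM range. The log2 fold change was -0.0027 (95% interval -0.06 to 0.06, adjusted p = 0.965 by limma), and its sign turned in 2 of 16 settings. Por lies on chromosome 5 from 135670040 to 135735326, on the plus strand, and shares no transcript window with another gene. In human cell lines POR and CYB5R1 have been reported to promote lipid peroxidation in ferroptosis, and Cyb5r1 is described further on with other genes of electron transfer.

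FPKM corrects for transcript length, so levels can be ranked between genes. The places of Akr1b3, Akr1c13 and Esd are less certain, as 86.2%, 28.6% and 14.1% of their transcript windows also occur in other genes. With Tdo2high CM the order was Akr1a1, Esd, Por, Ptgr1, Akr1b3, then Akr1c13 and Ephx1, whose ranges overlapped, then Akr1b8, Cbr1 and Cbr3. With control CM it was the same, but there Esd (119.9 to 130.8 FPKM) overlapped Por (119.3 to 125.3 FPKM), Akr1b8 overlapped Cbr1, and Akr1c13 and Ephx1 did not overlap. The 10 genes together summed to 710.4 ± 4.09 FPKM with Tdo2high CM and 674 ± 11.5 FPKM with control CM (SD, n = 3 each), a 1.05-fold difference. Of that difference of 36.3 FPKM, the hydrolases Esd and Ephx1 made up 33.3 FPKM and Ptgr1 5.38 FPKM, while the aldo-keto reductases differed by -1.66 FPKM.

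**Figure D3:**
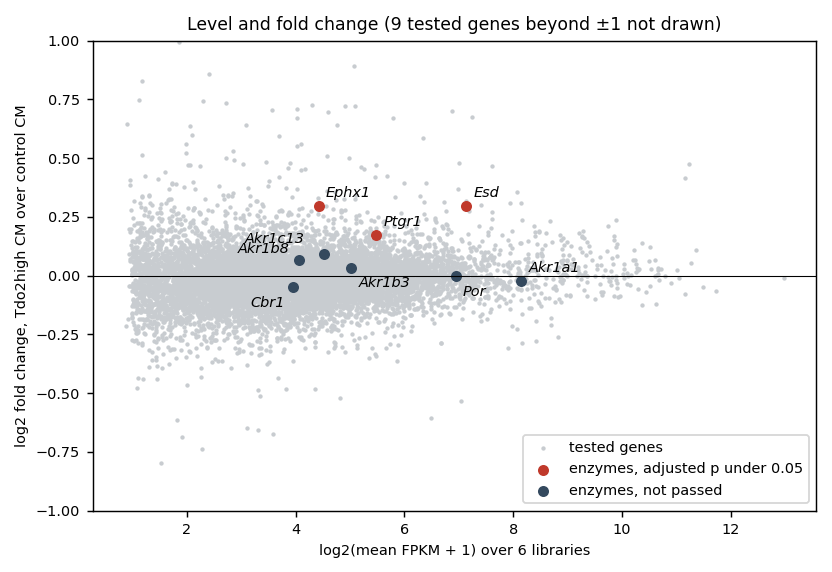
Log2 fold change (y axis, Tdo2high CM over control CM) against log2 of the mean FPKM + 1 over 6 libraries (x axis), for all tested genes (grey, 9 beyond the y axis not drawn) and the 9 tested enzymes (red where the adjusted p was under 0.05, dark blue otherwise). Esd and Ephx1 have log2 fold changes of 0.30 at very different levels. Por, near the level of Esd, lies at -0.0027, and Akr1a1, at a higher level, lies at -0.023.

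Promoter windows of 250 bases before to 50 bases after the annotated start (RefSeq, GRCm38.p6) matched 9 of the 10 genes, all but Akr1b3. The start used lies within 146 bases of the edge of the gene span given above for 8 of them, and 19105 bases inside it for Por, so the Por window does not cover the outermost annotated start. They were searched on both strands for the antioxidant response element core TGACNNNGC and the AhR core GCGTG, and overlapping matches were counted. The first was in none of the 9 windows, against 12.4% of 32851 promoter windows of the same length. The second was in 3 of the 9, against 32.4% of all windows: Akr1b8 held 1 match, Cbr1 2 and Por 3. None of these 3 genes passed the expression test, and none of the 3 that rose held either core in this window. Regulation of any of these genes by NRF2 or AhR was not tested. The windows of the 3 genes that rose are shown in full with that of Por, which held most matches. Capitals mark the AhR core on either strand, and each sequence runs in the direction of its gene.
Esd, chr14:74732047-74732346, plus strand: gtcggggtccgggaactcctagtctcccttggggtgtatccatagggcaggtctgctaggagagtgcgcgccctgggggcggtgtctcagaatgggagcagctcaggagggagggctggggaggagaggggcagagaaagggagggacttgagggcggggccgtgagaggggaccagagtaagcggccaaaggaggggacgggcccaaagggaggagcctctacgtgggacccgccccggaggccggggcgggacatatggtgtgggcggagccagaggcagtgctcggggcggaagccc
Ephx1, chr1:181017520-181017819, minus strand: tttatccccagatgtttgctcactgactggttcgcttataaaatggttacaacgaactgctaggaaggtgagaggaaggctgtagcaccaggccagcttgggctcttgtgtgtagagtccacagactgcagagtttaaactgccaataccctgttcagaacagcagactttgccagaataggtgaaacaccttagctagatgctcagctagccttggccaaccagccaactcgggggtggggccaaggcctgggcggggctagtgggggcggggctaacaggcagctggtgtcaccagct
Ptgr1, chr4:58987029-58987328, minus strand: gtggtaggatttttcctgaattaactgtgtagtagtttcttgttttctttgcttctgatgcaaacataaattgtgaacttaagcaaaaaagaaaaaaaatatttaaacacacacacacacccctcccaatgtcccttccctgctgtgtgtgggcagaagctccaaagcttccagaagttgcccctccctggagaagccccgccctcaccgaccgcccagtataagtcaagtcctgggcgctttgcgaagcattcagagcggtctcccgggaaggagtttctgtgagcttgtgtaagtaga
Por, chr5:135688895-135689194, plus strand: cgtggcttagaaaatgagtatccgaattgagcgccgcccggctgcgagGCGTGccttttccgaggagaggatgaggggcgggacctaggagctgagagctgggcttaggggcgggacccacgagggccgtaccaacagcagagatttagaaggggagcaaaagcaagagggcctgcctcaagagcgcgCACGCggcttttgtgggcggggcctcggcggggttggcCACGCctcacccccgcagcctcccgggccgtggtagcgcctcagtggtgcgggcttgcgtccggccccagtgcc
The base composition differed, with 68.7% G and C in the window of Esd, 54.3% in that of Ephx1, 47% in that of Ptgr1 and 67.3% in that of Por. Sites outside these windows were not searched.

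Related genes were read from 6 lists of 87 genes, of which 77 were in the table and 66 were tested. The lists hold other enzymes of similar chemistry, except that of Por partners and microsomal electron transfer, with 21 tested genes. That list supplied 4 of the rises and 1 of the falls counted next. Of the 66, 7 rose, 2 fell and 57 did not pass, next to 3.35% higher and 4.06% lower among all tested genes, and the groups did not overlap in 18, against 29.2% of all tested genes. Their median log2 fold change was 0.011. The largest change was that of Adh7, an alcohol and retinol dehydrogenase, which had 18.96, 20.2 and 18.8 FPKM with Tdo2high CM, against 13.3, 12.5 and 12.5 FPKM with control CM. Its log2 fold change of 0.56 ± 0.04 (SE; adjusted p = 6.08e-05 by limma) exceeded that of each of the 9 tested enzymes above, and its call held in all 16 settings. Adh7 was the 1 riser of 9 tested medium-chain reductases and alcohol dehydrogenases, and none of them fell.

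Among 19 tested short-chain carbonyl reductases outside Cbr1 and Cbr3, 2 rose and 0 fell. Hsd17b10, a mitochondrial hydroxyacyl and hydroxysteroid dehydrogenase, had 110.3 ± 4.05 FPKM with Tdo2high CM and 95.1 ± 2.34 FPKM with control CM (SD, n = 3 each; adjusted p = 0.00555 by limma). Rdh10, a retinol dehydrogenase, had 10.4 ± 0.206 FPKM with Tdo2high CM and 8.83 ± 0.214 FPKM with control CM (SD, n = 3 each; adjusted p = 0.0146 by limma, and 0.0565 without Tdo2high CM replicate 3). Of 4 tested aldo-keto reductases outside the named ones, none passed; the most abundant, Akr1b10, had 24.5 ± 0.732 FPKM with Tdo2high CM and 24.03 ± 1.01 FPKM with control CM (SD, n = 3 each). Among other epoxide hydrolases only Lta4h, leukotriene A4 hydrolase, was tested and it did not pass, with 29.8 ± 1.23 FPKM with Tdo2high CM and 30.5 ± 1.02 FPKM with control CM (SD, n = 3 each).

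Among 12 tested thioester, ester and glyoxal hydrolases, 0 rose and 1 fell. This was Hagh, which hydrolyses S-lactoylglutathione, the product of glyoxalase 1, with 13.5 ± 0.968 FPKM with Tdo2high CM and 15.7 ± 0.488 FPKM with control CM (SD, n = 3 each; log2 fold change -0.20, adjusted p = 0.0425 by limma). The call of Hagh was not stable: it ended in 10 of 16 settings, with adjusted p = 0.103 and 0.0858 by limma without Tdo2high CM replicates 1 and 2, and 0.132, 0.0716 and 0.0884 without control CM replicates 1, 2 and 3.

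Of 21 tested genes listed as Por partners or microsomal electron transfer, 4 rose and 1 fell. The list also held genes outside this microsomal chain, such as the mitochondrial Fdx1 and Fdxr. Cyb5b, the outer mitochondrial cytochrome b5, had 102 ± 1.66 FPKM with Tdo2high CM and 85.95 ± 1.73 FPKM with control CM (SD, n = 3 each; log2 fold change 0.25, adjusted p = 0.000882 by limma). Cyp1b1, a P450 that receives electrons from Por and a known AhR target, rose by 0.16 on the log2 scale (adjusted p = 0.00593 by limma). Cyb5r1, a cytochrome b5 reductase, fell, with 38.9, 35.95 and 35.99 FPKM with Tdo2high CM, against 44.99, 45.9 and 46.9 FPKM with control CM (-0.31 ± 0.04 SE, adjusted p = 0.00124 by limma). The calls of Cyb5b, Cyp1b1 and Cyb5r1 held in all 16 settings. Cyb5a (0.12, adjusted p = 0.0402 by limma) and Cyp51 (0.17, adjusted p = 0.0426), sterol demethylase, also passed, but their calls ended in 10 and 9 of 16 settings. For Cyb5a these included every fit without 1 library (adjusted p = 0.063 to 0.126 by limma), and for Cyp51 every such fit except that without Tdo2high CM replicate 1 (0.0880 to 0.140).

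**Figure D4:**
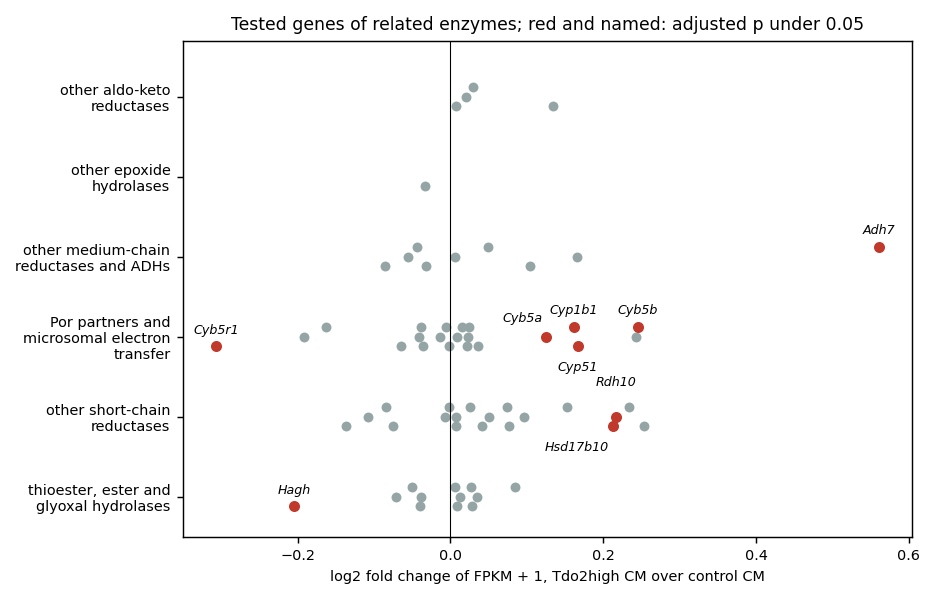
Log2 fold change of FPKM + 1 (x axis, Tdo2high CM over control CM) of the 66 tested genes of the 6 related lists (rows; height within a row has no meaning). Red points with names had an adjusted p under 0.05. Adh7 lies furthest to the right at 0.56 and Cyb5r1 furthest to the left at -0.31.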

How the data were processed

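PolyA RNA was copied with random hexamers and sequenced at BGI, per the labels' protocols. The authors deposited FPKM for 16426 genes in 6 libraries, rounded to 2 decimals, per the file headers. The build was GRCm38, per the submitters' processing notes; which aligner, quantifier and annotation were used is not given in the sources used here. Depth is unknown. A total of 6414 low values, divided by the lowest value of the same gene, lay on average 0.252 from the nearest whole number. Evenly spread values would give 0.25. The check cannot show read numbers, because the values were rounded and the lowest value of a gene need not be a single read. No interval from counts is given, and the number of libraries limits the precision.

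Samples were grouped by title. FPKM was tested as log2(FPKM + 1) by limma 3.58.1 in R 4.3.3 (intensity trend, two-sided, no replicate block), adjusted by Benjamini-Hochberg over the 10804 genes reaching 1 FPKM in 3 or more libraries, and was first tried on simulated data. The log2(FPKM + 1) scale understates changes of low genes. The 10 genes and the 6 related lists were chosen with earlier results of these data known. Every one of the 10 genes is named; of each related list, up to 4 called genes with the smallest adjusted p, or else the most abundant. Cyp51, Adh5, Ephx3 and Ephx4 were named after their values were seen. Summed FPKM is a description with no test. A total of 26 symbols that had turned into dates were replaced through the gene number. Shared 50-base windows were counted, on both strands, from the longest coding transcript in GENCODE M21. Figures used matplotlib 3.10.9. Alternatives were pseudocounts of 0.1 and 0.5, other filters (none, or a mean FPKM of at least 5), other scalings (TPM, median of ratios, quantiles), no intensity trend, robust variances, a replicate block, and each library left out in turn.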

Additional observations from a re-analysis of the deposited data

How the results depend on the processing

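Of the 144 values of the 9 tested enzymes under 16 settings, 132 kept their direction and their side of the threshold, 9 lost a call, 0 gained one and 3 changed sign. The number of enzymes called was 3, but 1 (Esd) with no filter on low values and 2 (Esd and Ephx1) with no intensity trend. Without 1 library it was 1 to 3. The number of genes called was 801, but 375 with no filter and 525 with no intensity trend, and 395 to 559 without 1 library; fewer samples in the fits without 1 library and more genes in the adjustment with no filter belong to those settings, and otherwise the cause was not tested. The number of related genes called stayed within 1.5 times of 9 in every setting. The sign changed for Akr1b3 without control CM replicate 1 (-0.029; -0.029 to 0.072 without 1 library), for Por with the median of ratios (0.010) and without control CM replicate 3 (0.014; -0.021 to 0.014 without 1 library), for Adh5 on the TPM scale (-0.0041), with quantile normalization (-0.0070), without Tdo2high CM replicate 1 (-0.011) and without control CM replicate 3 (-0.022; -0.022 to 0.024 without 1 library), and without control CM replicate 3 for Akr1b10 (-2.57e-05, with up to 0.058 without another library) and Akr1c12 (-0.020, with up to 0.226). The log2 ratio of Akr1b8 over Akr1b3 turned to -0.026 without control CM replicate 3 (up to 0.072 without another library), and that of Akr1c13 over Akr1c12 to 0.011 without Tdo2high CM replicate 2 and 0.159 without control CM replicate 3 (down to -0.162 without another library), while that of Ptgr1 over Ptgr2 stayed above 0 (0.069 to 0.182). The 1.05-fold difference of summed FPKM moved by less than the spread between libraries in each setting tried. Deviations of same-numbered libraries from their group means correlated at r = -0.023, -0.030 and 0.018. For differently numbered libraries r was -0.077 to 0.092. With 3 libraries a group, these values cannot show whether libraries were paired, and the main fit used no pairing. With the replicate number as a replicate block, 622 genes and the same 3 enzymes were called. Read depth is unknown, and 3 libraries a group limit what can be detected.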
